A study of Mus musculus with 18 samples.

Results

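Myo6, Cul9, Dzip1, Prex1, Hacd4, Gdpd1 and Pxdn are 7 genes whose RNA was lower with Δ9-THC in mouse embryonic stem cells (ESCs) and higher with Δ9-THC in epiblast-like cells (EpiLCs). They were selected on these measured shifts from the 12410 genes that had a row in the count tables of both cell types. The direction of the shift in each cell type, and the difference between the shifts, are therefore what chose the genes and are described here without a test. The change between the cell types, averaged over both exposures, is a contrast apart from these shifts and was tested. Its test rests on the same libraries and their spread, so its standard errors and adjusted p-values may not be independent of the choice.

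Libraries came from 4 groups of 3 biological replicates each: ESCs given the vehicle, ESCs given Δ9-THC at 100 nM, EpiLCs given the vehicle and EpiLCs given Δ9-THC at 100 nM. All 4 groups derive from mouse ESCs that carry the fluorescent reporters Blimp1::mVenus and Stella::ECFP, which are germline genes. Ethanol was the solvent of the drug, and the study describes the exposure as continuous. In that scheme, exposed EpiLCs were derived from ESCs already exposed and were exposed again. The shift in EpiLCs thus includes the earlier exposure, whose part cannot be told apart from that of the cell type. Poly(A) RNA was sequenced, the labels name a pair of library kits without saying which library was made with which, and libraries held between 23427551 and 32096698 adjusted counts. Libraries of primordial germ cell-like cells belong to the same series and were not used here.

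ESCs in this culture stand for the naive pluripotency of the embryo before implantation, and EpiLCs, obtained from ESCs with activin and fibroblast growth factor, stand for the epiblast after implantation. Δ9-THC is the main psychoactive compound of cannabis and a ligand of the cannabinoid receptors. The 7 genes belong to no common pathway. Myo6 encodes myosin VI, the actin motor that walks towards the minus end of the filament and carries endocytic vesicles. Prex1 encodes an exchange factor that switches on the small GTPase Rac. Dzip1 encodes a zinc finger protein of the base of the primary cilium, the antenna in which Hedgehog signals are read. Cul9 encodes a large cullin of the ubiquitin system that binds p53. Hacd4 encodes a dehydratase of the very long chain fatty acid cycle, and Gdpd1 a phosphodiesterase that cleaves lysophospholipids, among them precursors of N-acylethanolamines such as anandamide. Pxdn encodes peroxidasin, a secreted peroxidase that cross-links collagen IV in basement membranes.

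The labelled cell types were checked against their markers. Summed CPM (the count of a gene relative to library size) of 14 naive pluripotency genes was 5441 to 5952 in the ESC libraries and 559 to 608 in the EpiLC libraries. The sum of primed epiblast genes ran the other way, at 708 to 729 for the 10 of 12 measured in ESCs and 2234 to 2671 for 12 of 12 in EpiLCs. Of the 10 in both tables, 8 were called higher in EpiLCs and 2 lower. The 2 were Cdh2 (-1.23, SE 0.092) and Etv5 (-0.43, SE 0.066), and Etv5 alone held a mean of 453 CPM in vehicle ESCs. Within a cell type, the summed ranges of the vehicle and the exposed libraries overlapped for both lists, while single markers moved with Δ9-THC. In ESCs the primed genes Pou3f1, at a log2(fold-change) of -0.96 (SE 0.10, adjusted p = 0.0265), and Sox3, at -0.40 (SE 0.089, adjusted p = 0.0498), fell by the edgeR test. Neither was called without any 1 of the 6 ESC libraries or with offsets for GC content and length. In EpiLCs edgeR called 0 of the 14 naive genes and 0 of the 12 primed genes. All exposed libraries lay above all vehicle libraries for 4 naive genes, as they did for 11% of all genes. These were Prdm14 (0.60, SE 0.17), Tbx3 (0.41, SE 0.13), Nanog (0.13, SE 0.061) and Tcl1 (0.034, SE 0.078). Tdh (-0.23, SE 0.070) had all exposed libraries below. In ESCs, where 0 of the 14 naive genes were called, 3 (Esrrb, Klf2 and Tcl1) had all exposed libraries below, as 19.2% of all genes did, and 1 (Tfcp2l1) had them above. Tcl1 was thus separate in the directions of the 7 genes. The difference between the shifts (EpiLCs minus ESCs) was above 0 for 12 of the 14 naive genes and 8 of the 10 primed genes in both tables, and was called for none. Its median over all genes was 0.014. Of the lists for other cell types, the neural list reached a summed CPM of 153 in EpiLCs, and the mesoderm, fibroblast, endoderm and 2-cell-like lists stayed at or under 22.2 in every library. Vehicle and exposed libraries did not overlap for the neural list in ESCs (3 of 5 genes measured, 93.6 to 103 against 82.3 to 90.9), the 2-cell-like list in ESCs (2 of 6 measured, 2.07 to 2.74 against 2.74 to 3.48, apart in the next digit) and the endoderm list in EpiLCs (2 of 9 measured, 7.39 to 8.48 against 8.57 to 9.88). The part of such cells, and of these markers, in the shifts was not tested. In bulk RNA, fewer cells of a type and less RNA per cell cannot be told apart.

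The promoters of 4 of the genes are shown because they span the range of GGGCGG counts found among the 7 genes. Each is the RefSeq window of 300 bases in build GRCm38.p6, from 250 before to 50 after the start of transcription, written 5′ to 3′ on the gene's strand. Capitals mark every GGGCGG (the box bound by SP1-type factors) and every CCAAT on either strand, so that GGGCGG on the other strand reads CCGCCC, and overlapping matches were counted separately.
Prex1 chr2:166713783-166714082 (- strand): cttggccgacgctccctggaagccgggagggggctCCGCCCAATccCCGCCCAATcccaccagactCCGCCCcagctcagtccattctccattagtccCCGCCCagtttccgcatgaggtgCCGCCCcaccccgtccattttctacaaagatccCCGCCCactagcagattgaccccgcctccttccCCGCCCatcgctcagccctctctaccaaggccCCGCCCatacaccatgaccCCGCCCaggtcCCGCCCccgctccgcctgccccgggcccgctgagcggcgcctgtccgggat
Myo6 chr9:80164784-80165083 (+ strand): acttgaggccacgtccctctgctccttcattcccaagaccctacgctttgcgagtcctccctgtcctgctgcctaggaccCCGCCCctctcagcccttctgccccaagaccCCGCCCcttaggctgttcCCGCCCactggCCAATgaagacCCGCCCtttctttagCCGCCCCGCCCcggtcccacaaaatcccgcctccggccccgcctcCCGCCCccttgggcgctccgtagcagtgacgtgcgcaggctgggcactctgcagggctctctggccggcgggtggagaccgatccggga
Cul9 chr17:46546339-46546638 (- strand): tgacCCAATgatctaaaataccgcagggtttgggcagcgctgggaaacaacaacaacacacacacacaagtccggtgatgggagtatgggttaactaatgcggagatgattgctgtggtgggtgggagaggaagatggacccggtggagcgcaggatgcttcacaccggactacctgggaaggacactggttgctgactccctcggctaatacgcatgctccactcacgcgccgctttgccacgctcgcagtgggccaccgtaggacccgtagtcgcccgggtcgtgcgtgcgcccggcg
Gdpd1 chr11:87074088-87074387 (- strand): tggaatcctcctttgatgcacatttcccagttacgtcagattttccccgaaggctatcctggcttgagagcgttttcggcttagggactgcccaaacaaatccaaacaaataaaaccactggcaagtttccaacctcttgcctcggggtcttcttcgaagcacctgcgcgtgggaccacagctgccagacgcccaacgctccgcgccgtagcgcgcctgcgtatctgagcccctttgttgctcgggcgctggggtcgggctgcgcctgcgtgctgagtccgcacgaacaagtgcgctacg

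Prex1 carried 10 GGGCGG and 2 CCAAT matches in its window and Myo6 carried 7 and 1. Cul9 had no GGGCGG and 1 CCAAT, and Gdpd1 had neither. Hacd4 had 3 GGGCGG and no CCAAT, Pxdn had 3 and 1, and the start of Dzip1 that lies farthest upstream of its 3 RefSeq starts had 2 and 1. Of all 32851 promoters of this length, 35.7% held a GGGCGG and 37.4% a CCAAT. Neither motif was in the windows of all 7 genes. TATAAA was in none of their 9 windows and in 13.6% of all promoters.

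The genes lie on 7 different chromosomes. In the GENCODE M21 annotation of GRCm38, Myo6 spans chromosome 9, 80165031 to 80311729, forward strand, Cul9 chromosome 17, 46500572 to 46546388, reverse strand, Dzip1 chromosome 14, 118875520 to 118925460, reverse strand, and Prex1 chromosome 2, 166566342 to 166713832, reverse strand. Hacd4 spans chromosome 4, 88396144 to 88438928, reverse strand, Gdpd1 chromosome 11, 87033867 to 87074062, reverse strand, and Pxdn chromosome 12, 29937608 to 30017658, forward strand. All are protein-coding, and reads were counted over their exons. Except for Gdpd1, with 2336 bp, their exonic length was above the median of genes in both tables, at 6756 to 12198 bp against a median of 4377 bp. Their GC content ranged from 42.0% in Hacd4 to 59.2% in Cul9, around the median of 49.7% over all genes. Dzip1 shares 28.4% and Hacd4 11.04% of its exonic bases with another gene. Counting took no account of strand, so reads from those bases cannot be assigned to 1 gene.

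**Figure D1:**
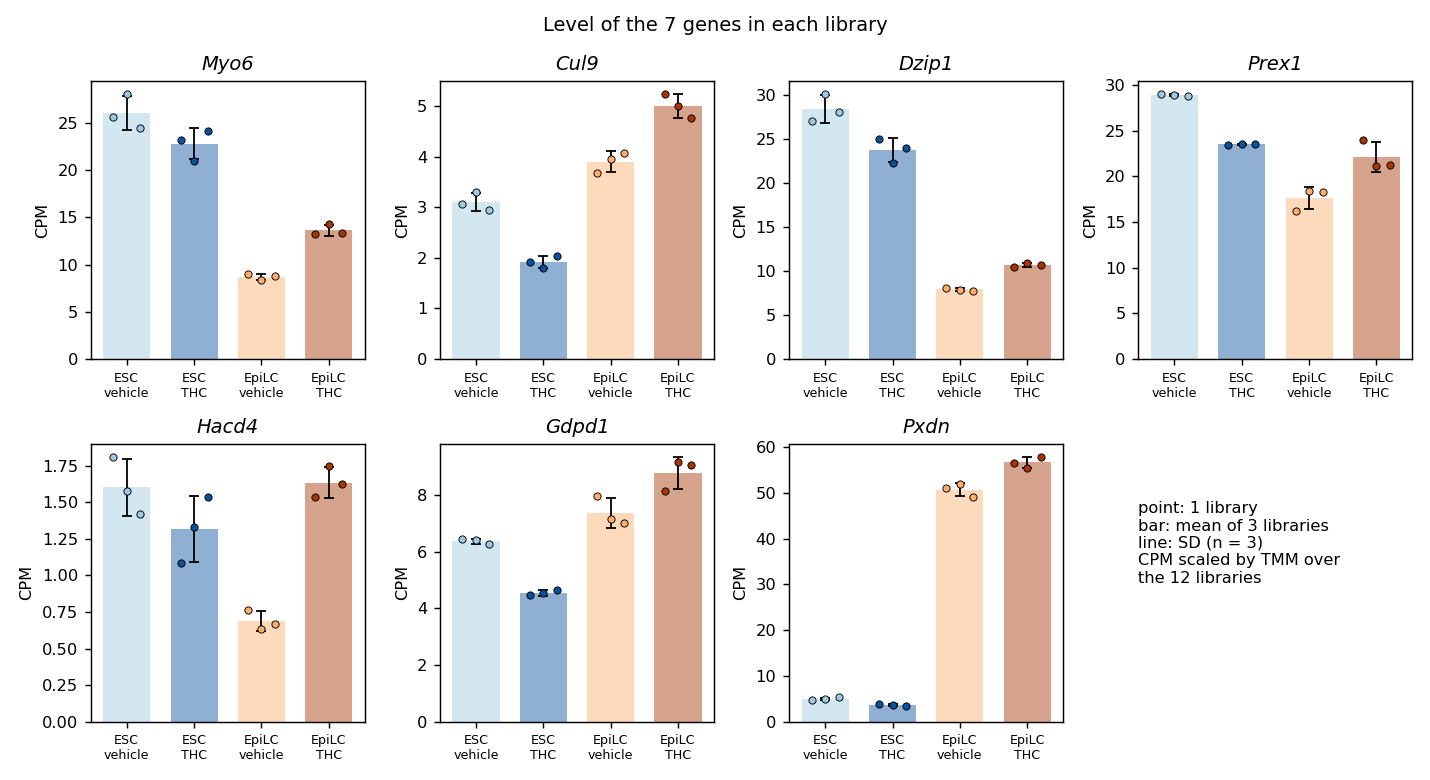
CPM of each gene (vertical axis, linear, from 0) in the 12 libraries by cell type and exposure. Points are libraries, bars the mean of 3 and lines the SD. In each panel the THC mean is below the vehicle mean in ESCs and above it in EpiLCs, while the step between cell types runs downwards in 4 genes and upwards in 3.

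Levels are given as CPM scaled over the 12 libraries (TMM), with the 3 libraries of a group in the order of their replicate number. Spread, standard errors (SE) and overlap all refer to counts after the authors' batch adjustment. In these, vehicle and exposed libraries of the same number deviated from their group means in opposite directions across genes (r from -0.993 to -0.984). The spread before adjustment was not analysed here and may have been larger. In vehicle ESCs, Prex1 counts of 945, 789 and 813 gave 29.0, 28.9 and 28.8 CPM, closer together than expected from counting error alone. The standard error of Prex1 in ESCs is therefore too small. By their adjusted counts, the standard errors of the shifts of Cul9, Gdpd1, Hacd4 and Pxdn in ESCs are also below counting error alone. So are those of Cul9 and Hacd4 in EpiLCs. The other standard errors and the adjusted p-values given may be too small as well. Myo6 stood at 25.6, 28.1 and 24.5 CPM in vehicle ESCs and at 23.2, 20.99 and 24.2 in exposed ESCs. In EpiLCs it stood at 8.98, 8.34 and 8.78 with vehicle and 13.3, 14.3 and 13.4 with Δ9-THC. The exposed ESC libraries were all lower by a narrow margin, 24.2 against 24.5 at the nearest, and the EpiLC libraries were well apart. The log2(fold-change) with Δ9-THC was -0.18 (SE 0.074) in ESCs and 0.65 (SE 0.074) in EpiLCs. With CPM scaled within the ESC table alone, an alternative chosen after seeing the data, the highest exposed and the lowest vehicle library overlapped.

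Prex1 showed the smallest spread of the 7 genes in ESCs after the batch adjustment, smaller than expected from counting error alone. Its level was 29.0, 28.9 and 28.8 CPM with vehicle and 23.4, 23.5 and 23.5 with Δ9-THC. The EpiLC libraries gave 16.2, 18.4 and 18.2 with vehicle and 24.0, 21.2 and 21.2 with Δ9-THC. The exchange factor thus moved by -0.28 (SE 0.033) and 0.33 (SE 0.087) on the log2 scale, without overlap of the libraries in either cell type.

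Dzip1, at the ciliary base, resembled Myo6 in its order of levels. It was measured at 26.9, 30.0 and 28.0 CPM in vehicle ESCs and 25.0, 22.3 and 24.0 in exposed ESCs. EpiLCs held less, 8.11, 7.83 and 7.76 with vehicle and 10.4, 10.9 and 10.7 with Δ9-THC. The groups did not overlap, and the log2(fold-change) was -0.24 (SE 0.062) in ESCs and 0.43 (SE 0.071) in EpiLCs.

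Cul9 had the largest decrease of the 7 genes in ESCs. Vehicle ESCs held 3.07, 3.30 and 2.94 CPM and exposed ESCs 1.92, 1.80 and 2.03. The exposed ESC values rest on 46, 54 and 49 adjusted counts, so counting error limits them. In EpiLCs the libraries gave 3.69, 3.95 and 4.08 with vehicle and 5.24, 5.001 and 4.76 with Δ9-THC. No library crossed between the groups. The cullin shifted by -0.68 (SE 0.095) on the log2 scale in ESCs, 37.6% less RNA, and by 0.36 (SE 0.10) in EpiLCs, 28.0% more.

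The lipid enzymes differed in how sharply they were measured. Hacd4 had the fewest counts of the 7 genes, 15 to 59 adjusted counts per library. It stood at 1.81, 1.57 and 1.42 CPM in vehicle ESCs and 1.08, 1.33 and 1.54 in exposed ESCs, and these ranges overlapped. In EpiLCs it stood at 0.765, 0.632 and 0.665 with vehicle and at 1.54, 1.75 and 1.62 with Δ9-THC, without overlap. Its log2(fold-change) was -0.27 (SE 0.16) in ESCs, and 1.24 (SE 0.14) in EpiLCs was the largest shift of any of the 7 genes. Gdpd1 gave 6.44, 6.41 and 6.28 CPM in vehicle ESCs and 4.46, 4.53 and 4.65 in exposed ESCs. Its EpiLC libraries gave 7.97, 7.14 and 7.01 with vehicle and 8.15, 9.17 and 9.05 with Δ9-THC, with 7.97 and 8.15 as the nearest pair. The phosphodiesterase shifted by -0.47 (SE 0.060) and 0.25 (SE 0.093) on the log2 scale.

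Pxdn was the gene with the widest gap between the cell types and the smallest shift in EpiLCs. Vehicle ESCs held 4.75, 4.91 and 5.32 CPM and exposed ESCs 3.92, 3.73 and 3.40. EpiLCs held 51.04, 52.0 and 49.1 with vehicle and 56.6, 55.5 and 57.8 with Δ9-THC. The groups did not overlap in either cell type, and the log2(fold-change) was -0.42 (SE 0.085) in ESCs and 0.16 (SE 0.055) in EpiLCs.

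By these libraries, 6 of the 7 genes were separate and lower in ESCs, all but Hacd4, where 19.2% of the 12410 genes were. In EpiLCs 7 of 7 were separate and higher, where 11% of all genes were. With CPM scaled within each cell type's own table, these were 5 of 7 against 16.3% and 7 of 7 against 10.98%. Both directions together held in 1.31% of all genes. Because the genes were chosen for these directions, nothing is read from the difference to the background.

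Across all genes, opposite signs were common. A log2(fold-change) below 0 in ESCs and above 0 in EpiLCs was found in 2506 genes (20.2%), and the reverse in 2595 (20.9%). Among the 2506, ordered by the difference between the shifts over its standard error, the 7 genes held places 1 to 5, 8 and 9. The difference was 0.85 (SE 0.11) for Myo6, 1.05 (SE 0.14) for Cul9, 0.69 (SE 0.10) for Dzip1, 0.63 (SE 0.10) for Prex1, 1.53 (SE 0.24) for Hacd4, 0.74 (SE 0.12) for Gdpd1 and 0.59 (SE 0.10) for Pxdn, on the log2 scale. Rgma, at place 7, is not among the 7 genes and had a difference of 0.96 (SE 0.15). The next gene after Pxdn, Gm49338, had a difference of 1.77 (SE 0.30). Some of these standard errors, such as those of Cul9 and Hacd4, are below counting error alone, so the places are only a description.

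The background of calls by edgeR, at an adjusted p of at most 0.05 over all genes, was 906 of 13104 genes (6.91%) in ESCs. It was 0 of 13717 (0%) in EpiLCs, where 2069 genes had an unadjusted p under 0.05 and DESeq2 called 71. The difference between the shifts was called for 4 of 12410 genes (0.0322%), and these were Myo6, Cul9, Dzip1 and Zfp36. As the difference is what chose the 7 genes, these calls are given as background and support nothing. The ESC count was not stable, since it was 0 or 1 whichever 1 of the 6 ESC libraries was left out.

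**Figure D2:**
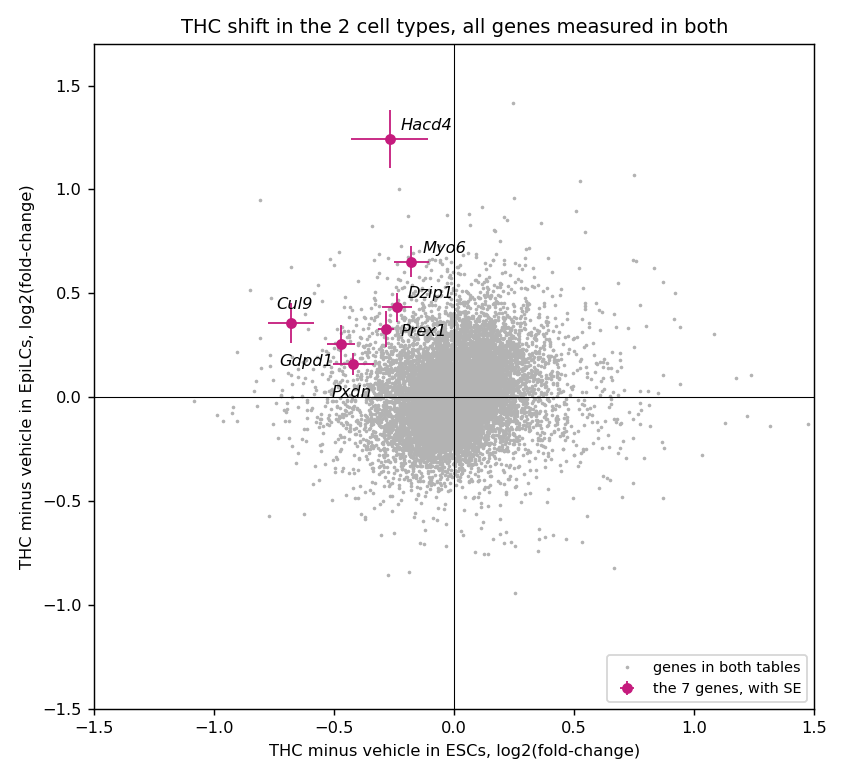
Shift with Δ9-THC in ESCs (horizontal) and in EpiLCs (vertical), as log2(fold-change), for the 12410 genes in both tables (grey) and the 7 genes (coloured, with SE). All 7 lie in the upper left quadrant, which holds 20.2% of the genes. 4 genes fall outside the plotted range.

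As an average of both exposures, the cell type change was larger in size than either Δ9-THC shift for 6 of the 7 genes. The exception was Hacd4 in EpiLCs. For Prex1 the margin in EpiLCs was within the errors (-0.40, SE 0.048, against 0.33, SE 0.087). The margins in ESCs were also narrow for their errors in Gdpd1 (0.58, SE 0.060, against -0.47, SE 0.060) and Cul9 (0.86, SE 0.072, against -0.68, SE 0.095). In the vehicle libraries alone, the change was smaller than both shifts for Cul9 (0.33 against -0.68 and 0.36). The same held for Gdpd1 (0.21 against -0.47 and 0.25). Averaged over both exposures, EpiLCs held more Pxdn than ESCs by a log2(fold-change) of 3.64 (SE 0.049), which is 12.5-fold, with an adjusted p of 1.26e-14. Cul9 was higher in EpiLCs by 0.86 (SE 0.072, adjusted p = 1.87e-07) and Gdpd1 by 0.58 (SE 0.060, adjusted p = 1.45e-06). The other 4 genes were lower in EpiLCs. Dzip1 changed by -1.497 (SE 0.049, adjusted p = 2.19e-11) and Myo6 by -1.16 (SE 0.055, adjusted p = 7.38e-10). Hacd4 changed by -0.46 (SE 0.12, adjusted p = 0.00338) and Prex1 by -0.40 (SE 0.048, adjusted p = 6.29e-06). All 7 passed the edgeR test, as did 80.8% of the 12410 genes, of which 40.3% were higher in EpiLCs and 40.4% higher in ESCs. A call of this kind is therefore near the background. The call of Hacd4 was lost with the replicate number as a block (adjusted p = 0.065). In the THC libraries alone neither Hacd4 (0.31, adjusted p = 0.132) nor Prex1 (-0.086, adjusted p = 0.273) passed the test, and Hacd4 had the opposite sign. The authors adjusted the 2 tables separately, and this test cannot tell such an effect of processing from the cell types.

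Set against the change averaged over both exposures, on the log2 scale, the shifts differed in relative size. For Pxdn the shift in ESCs was 11.5% of the size of the cell type change and that in EpiLCs 4.38%. Dzip1 gave 16.02% and 28.8%, and Myo6 15.3% and 56.2%. Cul9 gave 79.4% and 41.6%, Gdpd1 81.2% and 43.7%, and Prex1 70.8% and 82.1%. In Hacd4 the shift was 59.1% of the change in ESCs and 273% in EpiLCs, where it was larger than the average change between the cell types. These shares divide quantities with errors of their own, and that of Hacd4 rests on the smallest counts. The average change also contains the exposed libraries. In vehicle libraries alone the change was smaller for Cul9 (0.33), Gdpd1 (0.21) and Pxdn (3.35), which would give larger shares. It was larger in size for Myo6 (-1.58), Dzip1 (-1.84), Prex1 (-0.71) and Hacd4 (-1.22), which would give smaller shares. The order of the shares thus depends on this choice.

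The genes were chosen as lower with Δ9-THC in ESCs and higher in EpiLCs, so EpiLCs minus ESCs had to rise in each. Whether this brought the cell types closer together or apart follows mainly from the direction of differentiation, and is no separate finding. In Myo6, Dzip1, Prex1 and Hacd4, the genes that fell from ESCs to EpiLCs, both shifts brought the cell types closer together. In Cul9, Gdpd1 and Pxdn, the genes that rose, both moved them apart. Myo6 differed between EpiLCs and ESCs by -1.58 with vehicle and -0.74 with Δ9-THC, and Dzip1 by -1.84 and -1.15. For Prex1 the values were -0.71 and -0.086, so that exposed ESCs and exposed EpiLCs overlapped. Hacd4 went from -1.22 to 0.31 and so changed sign. Cul9 went from 0.33 to 1.38, Gdpd1 from 0.21 to 0.95, and Pxdn from 3.35 to 3.94. These 2 sets of values share libraries with the Δ9-THC shifts and carry no test.

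**Figure D3:**
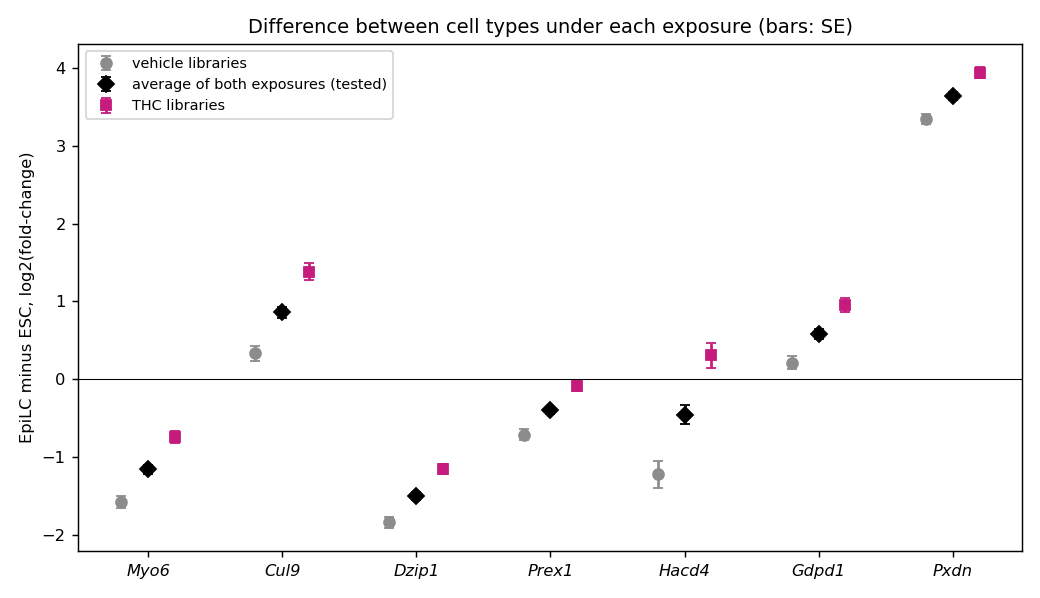
Difference between EpiLCs and ESCs (vertical, log2(fold-change), with SE) of each gene in the vehicle libraries (grey), in the THC libraries (coloured) and averaged over both (black, the tested value). Every gene sits higher with Δ9-THC than with vehicle, which follows from how the genes were chosen; Hacd4 crosses 0.

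Ordered by level, Myo6 and Dzip1 ran vehicle ESCs, exposed ESCs, exposed EpiLCs, vehicle EpiLCs from high to low, with no overlap between neighbours. Prex1 had the same order, but exposed ESCs (23.5 ± 0.0742 CPM, SD, n = 3) and exposed EpiLCs (22.1 ± 1.63) overlapped. Cul9, Gdpd1 and Pxdn ran exposed EpiLCs, vehicle EpiLCs, vehicle ESCs, exposed ESCs, without overlap. Hacd4 had exposed EpiLCs (1.63 ± 0.106 CPM), vehicle ESCs (1.60 ± 0.196) and exposed ESCs (1.32 ± 0.226) at levels that overlapped between neighbours, and vehicle EpiLCs (0.687 ± 0.0696) below them. Per kilobase of exon, which allows levels of different genes to be compared, Pxdn was the most abundant of the 7 in vehicle EpiLCs at 5.26 CPM per kilobase. Prex1 (2.82), Gdpd1 (2.73) and Dzip1 (2.69) led in vehicle ESCs. Hacd4 was the least abundant in vehicle EpiLCs at 0.102, and Cul9 in exposed ESCs at 0.157.

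Base composition moved with the exposure over all genes, and its values are given beside the shifts. Across genes, which are not independent replicates, the log2(fold-change) with Δ9-THC correlated with GC content at a Spearman rho of -0.536 in ESCs and -0.299 in EpiLCs. With exonic length the rho was 0.0598 in ESCs and 0.338 in EpiLCs. Among the 7 genes, Cul9 (59.2% GC), Prex1 (57.6%) and Pxdn (52.7%) lie above the median in GC content. With offsets that take out how each library's counts follow GC content and length, every one of the 7 genes kept its direction in both cell types. In ESCs Cul9 was then at -0.53, Prex1 at -0.16, Pxdn at -0.36, Gdpd1 at -0.54, Hacd4 at -0.37, Myo6 at -0.24 and Dzip1 at -0.23. In EpiLCs Hacd4 was at 1.14, Myo6 at 0.49, Dzip1 at 0.32, Cul9 at 0.30, Prex1 at 0.29, Gdpd1 at 0.26 and Pxdn at 0.10. The shift of Prex1 in ESCs and that of Pxdn in EpiLCs were the most reduced in proportion. With each library left out in turn, the shift of Hacd4 in ESCs ranged from -0.38 to -0.16 and that of Myo6 from -0.23 to -0.12, the widest ranges in proportion.

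**Figure D4:**
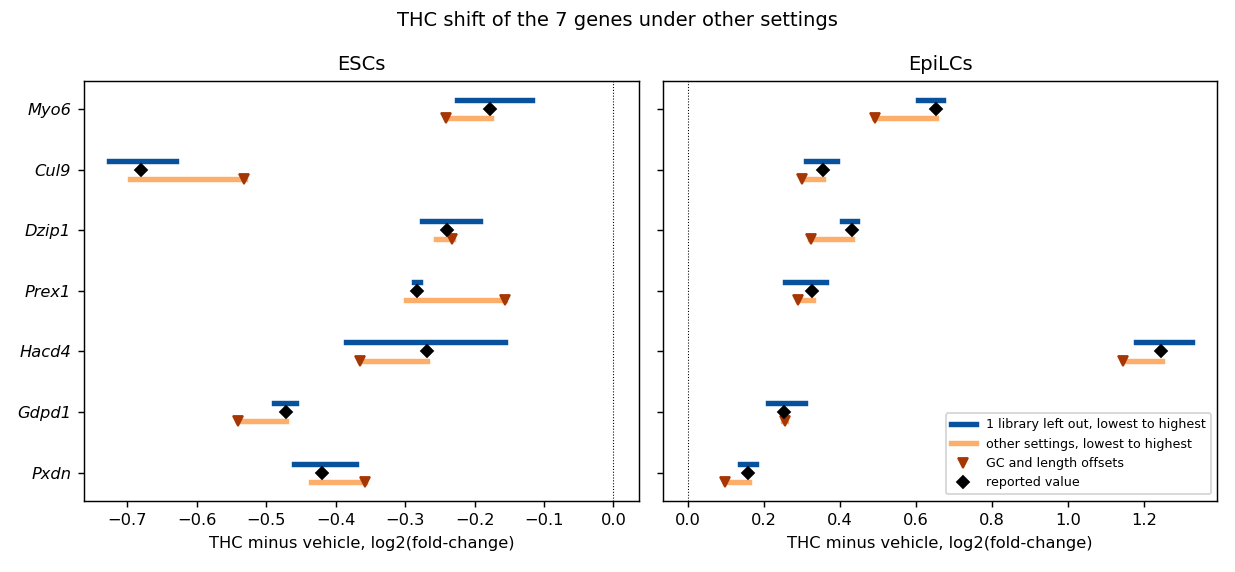
Shift of the 7 genes with Δ9-THC (horizontal, log2(fold-change)) in ESCs and EpiLCs as reported (diamonds), with each library left out in turn (upper bars, lowest to highest) and under the other settings (lower bars), with the GC and length offsets marked by triangles. No bar crosses 0, and that of Hacd4 in ESCs is the longest of the bars for libraries left out.

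The relatives and partners of each gene were taken from 8 lists with 143 other genes, of which 120 had a row in the ESC table, 123 in the EpiLC table and 117 in both. In ESCs, 6 of the 120 rose and 8 fell with Δ9-THC, 11.7% in all against 6.91% of all genes. In EpiLCs edgeR called 0 of 123, with 20 at an unadjusted p under 0.05 and 2 called by DESeq2. The difference between the shifts was called for 0 of 117, with 17 at an unadjusted p under 0.05 and 3 called by DESeq2. Myo9b and Cand2 of the 117 had all exposed libraries below all vehicle libraries in ESCs and above them in EpiLCs. Over all genes in both tables this held for 1.31%. The 14 calls in ESCs are fragile, as none was made without any 1 of the 6 ESC libraries or with the GC and length offsets, and 1 was made in a fit of all 12 libraries. Between cell types, 42 of 117 (35.9%) were higher in EpiLCs and 61 (52.1%) higher in ESCs, against 40.3% and 40.4% of all genes.

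**Figure D5:**
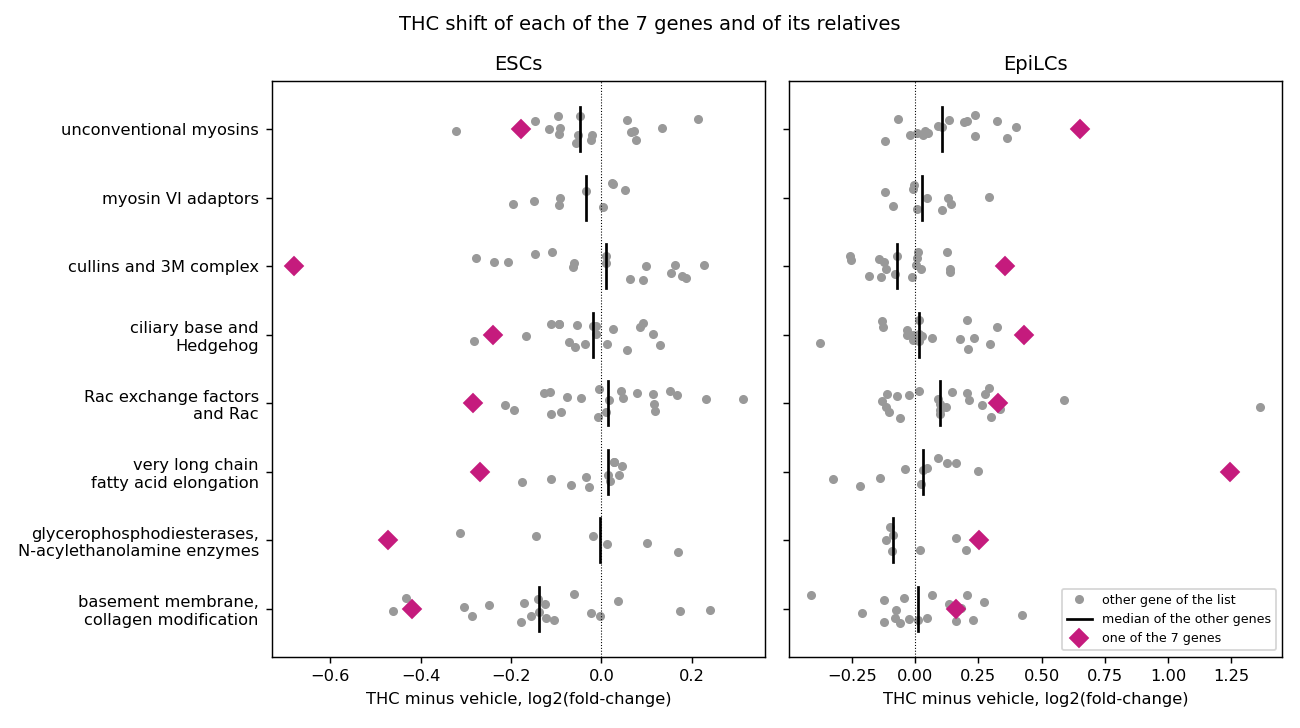
Shift with Δ9-THC (horizontal, log2(fold-change)) of each of the 7 genes (diamonds) and of the other measured genes of its list (points, with the median as a line), in ESCs and EpiLCs; the list of myosin VI adaptors holds none of the 7. In both panels the list medians lie between -0.14 and 0.11, and each is nearer to 0 than its member among the 7 genes. The 7 genes were chosen for their shifts and the other genes were not, so nothing is read from this.

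Of the unconventional myosins, the family of Myo6 that moves vesicles and membranes rather than muscle, 0 of 17 were called in either cell type, with a median log2(fold-change) of -0.047 in ESCs and 0.11 in EpiLCs. Over all genes these medians were 0.0041 and 0.0030. Myo18b stood at -0.32 (SE 0.13) in ESCs and 0.32 (SE 0.19) in EpiLCs, neither past the threshold. Between cell types, Myo1f (-2.27, SE 0.077) and Myo18b (-1.505, SE 0.12) were lower in EpiLCs, as Myo6 was, and the vesicle motor Myo5a was higher (1.28, SE 0.051). Of the adaptors that link myosin VI to its cargo, Gipc1 fell in ESCs, by 0.15 (SE 0.029) on the log2 scale (adjusted p = 0.0395), but not with the offsets, where its value was 0.00476. The autophagy receptor Optn was higher in EpiLCs than in ESCs (1.92, SE 0.061) and Sh3tc2 was lower (-1.40, SE 0.070).

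Among the Rac exchange factors, Rac proteins and their effectors, 0 of 22 were called in ESCs and 0 of 23 in EpiLCs, with medians of 0.014 and 0.10. Prex2, the nearest relative of Prex1, had the opposite sign in ESCs, at 0.31 (SE 0.076, adjusted p = 0.0576), and 0.016 (SE 0.13) in EpiLCs. The kinase Pak3 (3.44, SE 0.14) and the exchange factor Trio (2.00, SE 0.091) were higher in EpiLCs than in ESCs, and Dock1 was lower (-2.08, SE 0.10).

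Of the genes of the ciliary base and the Hedgehog pathway, 1 of 19 was called in ESCs. Smo, the signal transducer of the pathway, fell by 0.28 (SE 0.039) (adjusted p = 0.0283), while in EpiLCs it stood at 0.026 (SE 0.054). The list medians were -0.018 in ESCs and 0.015 in EpiLCs. Dzip1l, the paralog of Dzip1, stood at -0.072 (SE 0.081) and 0.014 (SE 0.10), and it was higher in EpiLCs than in ESCs by 1.94 (SE 0.071), where Dzip1 itself was lower. The transcription factor Gli2 was lower in EpiLCs (-2.10, SE 0.043), and Hhip, a Hedgehog-binding inhibitor, was higher (1.40, SE 0.18).

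The cullin list, with the 3M complex of Cul7, held 8 of the 14 calls in ESCs, among 17 genes, where 6.91% of all genes were called. None of these calls was made with the GC and length offsets. The core cullins Cul1 (0.16, SE 0.024), Cul2 (0.15, SE 0.024), Cul3 (0.18, SE 0.039) and Cul5 (0.19, SE 0.034) and the RING protein Rnf7 (0.23, SE 0.045) rose, opposite to Cul9. Obsl1 of the 3M complex (-0.28, SE 0.033), Fbxw8 (-0.15, SE 0.028) and the cullin exchange factor Cand2 (-0.24, SE 0.048) fell. Cul7, the closest relative of Cul9, stood at -0.21 (SE 0.047) in ESCs (adjusted p = 0.0513) and -0.071 (SE 0.11) in EpiLCs. Trp53, which encodes p53, stood at -0.061 (SE 0.024) and -0.25 (SE 0.16), neither past the threshold. Cul4b (-1.13, SE 0.091), Cul2 (-0.68, SE 0.064) and Cul5 (-0.66, SE 0.061) were lower in EpiLCs than in ESCs.

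In the very long chain fatty acid cycle, none of the 11 other genes was called in either cell type. The dehydratases Hacd1, Hacd2 and Hacd3 stood at 0.028 (SE 0.10), -0.066 (SE 0.063) and 0.028 (SE 0.053) in ESCs and at -0.041 (SE 0.13), -0.14 (SE 0.14) and 0.13 (SE 0.057) in EpiLCs. The elongases changed widely between cell types, with Elovl7 lower (-2.65, SE 0.075) and Elovl4 higher (1.88, SE 0.069) in EpiLCs. Of the glycerophosphodiesterases and the enzymes of N-acylethanolamines, the lipid class of anandamide, Napepld rose in ESCs by 0.17 (SE 0.038, adjusted p = 0.0493). This was the only call among 6 genes in ESCs, and 0 of 7 were called in EpiLCs. Faah, which degrades anandamide, stood at 0.012 (SE 0.073) in ESCs and -0.10 (SE 0.16) in EpiLCs. Napepld was lower (-1.39, SE 0.053), and Faah (0.94, SE 0.10) and Naaa (0.53, SE 0.088) were higher in EpiLCs than in ESCs.

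The basement membrane list around Pxdn was the one with the lowest median in ESCs, -0.14 against 0.0041 over all genes. Of its 19 genes 16 were below 0 and 3 were called, where 6.91% of all genes were called. None of the 3 calls was made with the GC and length offsets, with a replicate block or with any 1 ESC library left out. Col4a1 fell by 0.46 (SE 0.077) (adjusted p = 0.0318) and Col4a2 by 0.43 (SE 0.092) (adjusted p = 0.0466), the collagen IV chains that peroxidasin cross-links. Nid2, a nidogen that bridges laminin and collagen IV, fell by 0.16 (SE 0.034) (adjusted p = 0.048). In EpiLCs 0 of 19 were called, with a median of 0.0089, and Col4a1 and Col4a2 stood at -0.025 (SE 0.18) and 0.27 (SE 0.21). Between cell types, Nid1 (-4.64, SE 0.052) and Lama1 (-4.23, SE 0.13) were far lower in EpiLCs, while Loxl2 (3.59, SE 0.20), like Pxdn, was higher. Cells of the endoderm secrete much of this matrix, and Gata4 was the 1 of 9 endoderm markers with a row in the ESC table. Its level was 2.53 to 3.39 CPM in vehicle and 2.38 to 3.27 in exposed ESCs. Gata6, Sox17, Sox7, Foxa2, Pdgfra, Afp and Ttr had no row in either table. Dab2 had a row in EpiLCs only, at a mean of 6.83 CPM with vehicle and 8.37 with Δ9-THC, without overlap. Gata4 in EpiLCs stood at 0.978 and 1.07, with overlap. The part of such cells in these shifts was not tested.

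The genes with the most similar course were found by the correlation of log2 CPM over the 12 libraries, with the mean of each cell type subtracted, to the mean profile of the 7 genes. Among 12003 other genes, Adam23 (r = 0.984), Mapkbp1 (r = 0.970), Nbeal2 (r = 0.963), Pheta1 (r = 0.958) and Fbn2 (r = 0.953) ranked first. The libraries share tables and adjustment, and the groups carry most of the variation, so these values are a description. For single genes the most similar were Bend6 to Myo6 (r = 0.973), Samd4b to Cul9 (r = 0.961), Fam129a to Dzip1 (r = 0.981), Fbrs to Prex1 (r = 0.991), Coq2 to Hacd4 (r = 0.987), Ccdc36 to Gdpd1 (r = 0.969) and Yaf2 to Pxdn (r = 0.976). Their own shifts were mostly smaller. Adam23 moved by -0.13 in ESCs and 0.17 in EpiLCs, and Fbn2, a fibrillin of extracellular microfibrils, by -0.25 and 0.42.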

How the data were processed

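RNA-seq of mouse ESCs and EpiLCs was used, 3 libraries for each cell type and exposure. The authors aligned reads with STAR, counted uniquely mapped reads over exons with HTSeq without strand, removed genes with 10 or fewer counts and adjusted the counts with ComBat-seq. The batches are not given in the sources used here. The deposited tables hold these adjusted counts, 1 table per cell type, as whole numbers not scaled for library size. The genome is named both as mm10 and as GRCm39. Columns of other samples numbered 0.

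Groups came from the labels. Counts of genes with a total over 10 were fitted with edgeR 4.0.16 (quasi-likelihood, TMM) in R 4.3.3, with Benjamini-Hochberg adjustment over all genes. The shift with Δ9-THC came from the 6 libraries of a cell type, and the difference between shifts and the cell type change (mean of both EpiLC groups minus mean of both ESC groups) from a model of 12 libraries and 4 groups. Standard errors are those implied by the F statistic and measure the spread of the adjusted counts, which may be smaller than that of the counts before adjustment. CPM was scaled by TMM over the 12 libraries. Against the fits of single cell types, this scaling moved the median shift by -0.016 in ESCs and by -0.00034 in EpiLCs, on the log2 scale.

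The 7 genes and the lists of relatives and markers were chosen with earlier results of these data known. In each list, the nearest relatives by symbol and up to 3 called genes with the largest change per comparison were named, and the genes that make up a count of 5 or fewer were added after their values were seen, as were Trp53 and Myo9b. Genes most similar in course (5 to the mean profile, 1 to each gene) needed a mean of at least 1 CPM in each cell type.

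Each choice was also changed: DESeq2 1.42.0 in place of edgeR, RLE in place of TMM, all genes or only those with 10 counts or more in each library, a block for the replicate number, offsets for GC content and length (splines with 5 degrees of freedom), block and offsets at once, 12 libraries in place of 6, and 1 library left out. Annotation was GENCODE M21, which matched 13083 of 13104 genes in ESCs and 13696 of 13717 in EpiLCs. Promoters were from RefSeq, with entries for 7 of 7 genes. Totals of 23427551 to 32096698 counts leave counting error as a limit mainly for Hacd4 and for Cul9 in exposed ESCs. Tables were made with pandas 2.3.3 under Python 3.11.15, and figures with matplotlib 3.10.9.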

Additional observations from a re-analysis of the deposited data

Results flagged for a closer look

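For 6 of the 7 genes, every exposed ESC library lay below every vehicle ESC library and every exposed EpiLC library above every vehicle EpiLC library. The difference between the shifts (EpiLC minus ESC, log2 scale) was 0.85 for Myo6, 1.05 for Cul9, 0.69 for Dzip1, 0.63 for Prex1, 0.74 for Gdpd1 and 0.59 for Pxdn. These genes were chosen for that pattern, so the difference was not tested for them. Such a separation in both cell types was found in 1.31% of the 12410 genes. With CPM scaled within the ESC table alone, the libraries of Myo6 overlapped in ESCs.

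Among the relatives and partners, Cand2, an exchange factor of cullin ligases, was separate in the same way and was called in ESCs. Its shift was -0.24 (SE 0.048) in ESCs and 0.13 in EpiLCs, a difference of 0.38. The difference did not pass the adjusted threshold over all genes. With the GC and length offsets its shift in ESCs was -0.13 and was no longer called.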

How the results depend on the processing

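Each of the 7 genes kept the direction of its shift in ESCs, of its shift in EpiLCs and of the difference between them under all alternatives run for these. The number of genes called was less stable. In ESCs it went from 906 to 2 with the GC and length offsets, 3 with the offsets and the replicate block, 31 in a fit of all 12 libraries and 0 to 1 with 1 library left out. In EpiLCs it went from 0 to 71 with DESeq2 and 411 in the fit of all 12 libraries. For the difference between shifts it went from 4 to 133 with DESeq2, 0 with the offsets, 0 with the offsets and the replicate block, and 0 to 0 with 1 library left out. The count for the cell type change stayed within 9722 to 10061 with 1 library left out. The cell type change of Hacd4 was reversed in the THC libraries alone (0.31), and that of Prex1 lost its call there (adjusted p = 0.273). The shift of Gipc1 in ESCs was reversed with the offsets (0.00476) and with the offsets and the replicate block (0.00482). None of the 5 genes most similar to the mean profile ranked among the first 5 without subtraction of the cell type means (0 of 5). Beyond what each setting changes in its construction, the cause was not tested.

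The replicate numbers link the libraries, but not as pairs that deviate together, for which a correlation over 0.1 was required. Vehicle and exposed libraries with the same number deviated from their group means in opposite directions across genes, at correlations from -0.993 to -0.984, and those with other numbers at 0.20 to 0.71. With a replicate block in the fit, 5 genes were called in ESCs and the difference between shifts was called for 0 genes. The cell type change of Hacd4 was then not called (adjusted p = 0.065), nor with the offsets added (adjusted p = 0.110), and the other 6 genes kept their call. Depth limits Hacd4, with 15 to 59 counts per library, more than the other genes.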
